A study of Mus musculus with 2 samples.

Results

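The genes described here make cholesterol from acetyl-CoA and control that synthesis through SREBP, the sterol regulatory element-binding proteins. They are 28 genes, 20 enzymes and 8 control genes, matched by gene symbol among the 55536 genes of the annotation. All 28 symbols matched 1 gene each, and all 28 passed the count filter, which kept 17666 genes. The rule uses symbols and no measured value.

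Adrenal glands of adult female mice, aged 8 to 10 months and from a cross of the 5xFAD strain with the CAST strain, were measured by total RNA sequencing. The 5xFAD strain carries human transgenes for amyloid precursor protein and presenilin, driven by a promoter active in neurons, as a model of Alzheimer's disease; CAST is a wild-derived strain. The labels gave 1 group with 2 biological replicates, numbered 1 and 2 and named mouse 1 and mouse 2 below, with 300 ng of RNA for each library. The labels give the cross and not which animals carry the transgenes. No second group was analysed here, so levels and the difference between the mice are described, with no test of a condition. Both libraries carry the same donor identifier, so only the replicate numbers say that they came from separate animals.

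Cells make cholesterol from acetyl-CoA by way of mevalonate, the isoprenoid diphosphates, squalene and lanosterol. The cortex of the adrenal gland turns cholesterol into steroid hormones and takes it from lipoproteins, from stored esters and from synthesis. When sterols are low, the escort protein SCAP carries SREBP from the endoplasmic reticulum to the Golgi, where a pair of proteases frees its transcription factor part. That part enters the nucleus and raises the genes of synthesis and of lipoprotein uptake. When sterols are high, INSIG proteins hold SCAP and SREBP back in the endoplasmic reticulum.

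Promoter letters were read before the levels, because SREBP acts through short elements near the start sites, together with NF-Y at CCAAT boxes and Sp1 at GC boxes. RefSeq windows of GRCm38.p6, the assembly also called mm10, run from 250 bases before a start site to 50 after it. They matched 25 of the 28 genes with 33 windows, and Fdps, Fdft1 and Sqle were not matched. Of the stretches below, Hmgcs1 is shown because its window alone among the 33 held the sterol element TCACNCCAC. Insig1 and Sc5d, chosen after their values were seen, are shown because they hold the E-box CACGTG and differed between the mice in opposite directions. Capitals mark the sterol element, the CCAAT box, the GC box with the letters GGGCGG and the E-box, each on either strand. The stretches end before the RefSeq start site and before any annotated exon, and lie at chr13:119690101-119690350 on the plus strand, chr5:28071162-28071362 on the plus strand and chr9:42264301-42264550 on the minus strand, in the order printed.
Hmgcs1: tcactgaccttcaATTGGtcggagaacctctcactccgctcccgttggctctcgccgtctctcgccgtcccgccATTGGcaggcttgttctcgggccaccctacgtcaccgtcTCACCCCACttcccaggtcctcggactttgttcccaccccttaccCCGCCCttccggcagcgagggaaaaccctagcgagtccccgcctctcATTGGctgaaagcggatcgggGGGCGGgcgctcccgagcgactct
Insig1: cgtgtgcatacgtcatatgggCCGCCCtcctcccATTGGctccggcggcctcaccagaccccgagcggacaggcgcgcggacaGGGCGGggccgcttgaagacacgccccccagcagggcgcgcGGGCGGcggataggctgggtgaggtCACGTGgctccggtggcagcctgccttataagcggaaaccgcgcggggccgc
Sc5d: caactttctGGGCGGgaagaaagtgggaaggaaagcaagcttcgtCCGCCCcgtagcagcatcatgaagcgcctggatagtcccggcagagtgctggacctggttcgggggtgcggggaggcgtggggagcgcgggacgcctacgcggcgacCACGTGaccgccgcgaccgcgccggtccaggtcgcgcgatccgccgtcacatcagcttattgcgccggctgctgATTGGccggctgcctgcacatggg

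The Hmgcs1 stretch of 250 bases held 1 sterol element, 3 CCAAT boxes and 2 GC boxes. Its sterol element, read as TCACCCCAC on the plus strand at chromosome 13, 119690214 to 119690222, lies 137 to 129 bases before the start site. The Insig1 stretch of 201 bases held 1 CCAAT box, 3 GC boxes and 1 E-box. The Sc5d stretch of 250 bases held 1 CCAAT box, 2 GC boxes and 1 E-box. All other matches stand in the plot of motif positions.

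**Figure D1:**
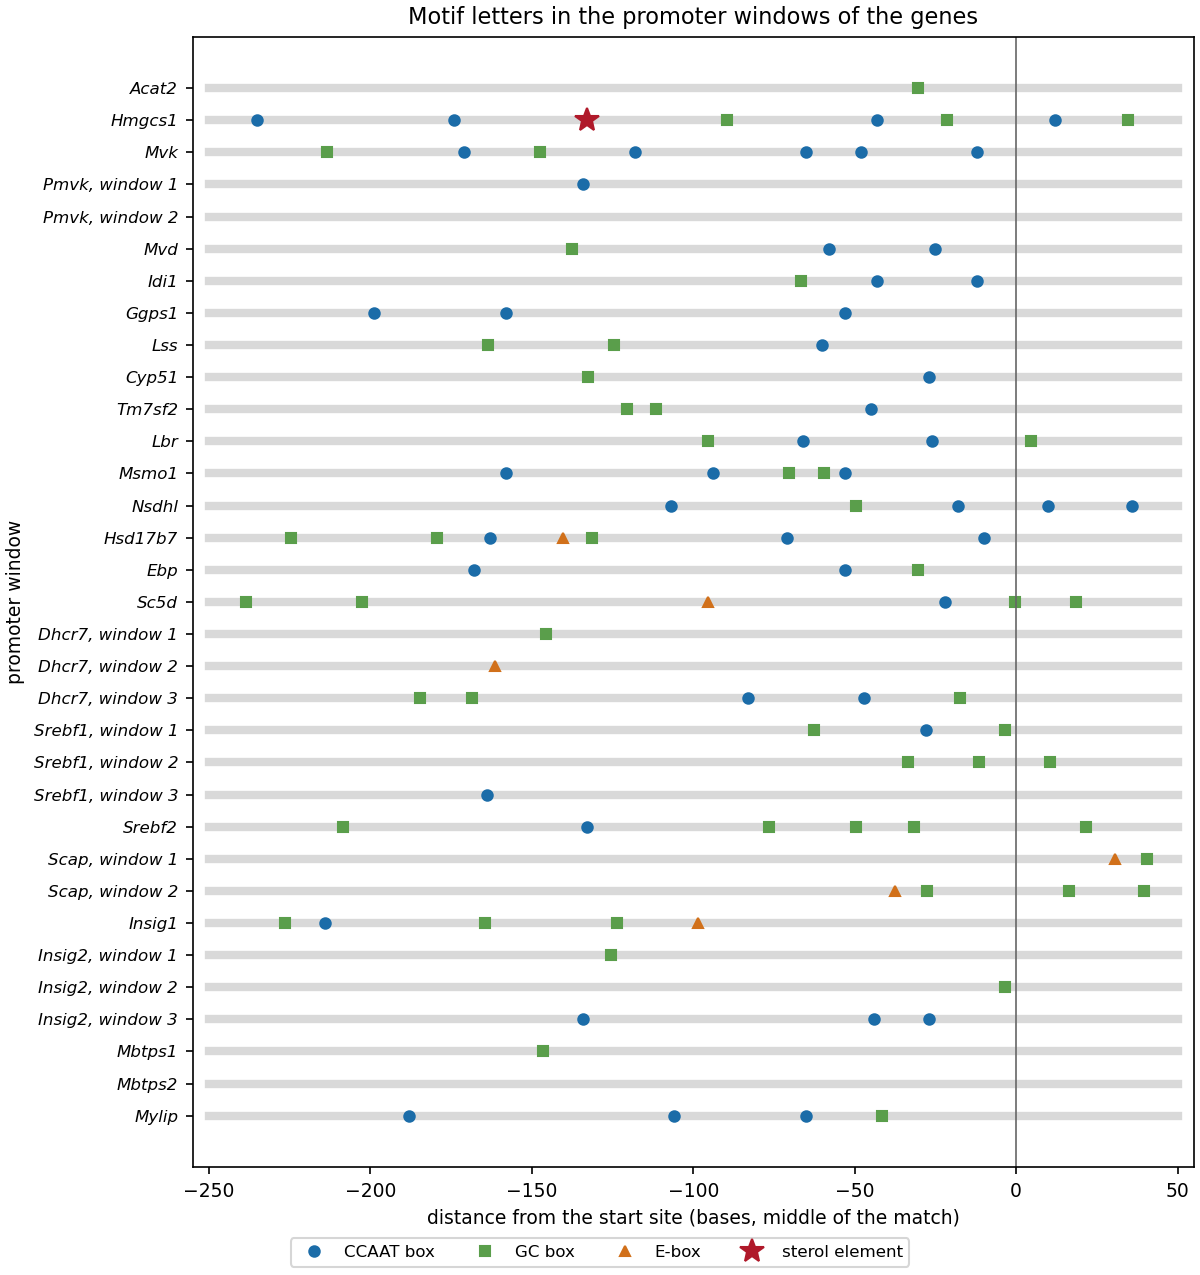
Positions of 4 motifs in the 33 promoter windows of 25 genes, with the distance from the start site in bases on the x axis and 1 row for each window. CCAAT boxes (circles) and GC boxes (squares) occur in most rows, the E-box (triangles) in 6 rows and the sterol element (star) in the Hmgcs1 row only; several rows of Pmvk, Dhcr7, Srebf1, Scap and Insig2 are separate start sites of the same gene.

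CCAAT boxes stood in 22 of the 33 windows, in 21 of the 25 genes, while 37.4% of all 32851 windows and 38.2% of the 21262 windows of protein-coding genes held one. GC boxes, GGGCGG, stood in 26 of the 33 windows and 22 genes, while 35.7% of all windows and 46.2% of coding windows held one. The E-box stood in 6 windows of 5 genes, Dhcr7, Hsd17b7, Insig1, Sc5d and Scap, against 7.15% of all windows. The 2 windows of Scap overlap and hold the same E-box. The sterol element stood in 1 window, against 1.24% of all windows. None of the 105 matches overlapped a match of another motif. Windows of 1 gene are not independent, and a match in letters is not a binding site. Only these exact letters were searched, so a window without a match was not shown to lack an element. Start sites also differ between annotations: the leading transcript of Dhcr7 starts 588 bases before the nearest of its 3 RefSeq starts.

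All 28 genes were present in both glands at 1 TPM or more, where TPM is a level scaled to transcript length and to all RNA of the table. At 10 TPM, 20 genes were present in both. The median of the 28 genes was 17.6 TPM, and 20 of them stood above the median of 10.3 TPM of the 11913 nuclear protein-coding genes detected in both mice. Their summed level was 961 TPM in mouse 1 and 1002 TPM in mouse 2, which was 0.326% and 0.310% of all nuclear coding TPM. The genes held 88654 and 76745 expected counts, of 36558609 and 32192201 in all genes.

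Dhcr7, a terminal reductase of cholesterol synthesis (chromosome 7, 143823145 to 143848410, mm10), stood far above the others. Its level was 276.5 and 294.5 TPM in the 2 mice, a mean of 285.5 ± 12.7 TPM (SD, n = 2). The deposited interval of its level ran from 268 to 279 TPM in mouse 1 and from 284 to 296 TPM in mouse 2. That mean was 2.85 times the mean of the next gene, Fdps, and at the 99.1 percentile of detected coding genes. Dhcr7 alone made up 28.8% and 29.4% of the summed level of the 28 genes.

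**Figure D2:**
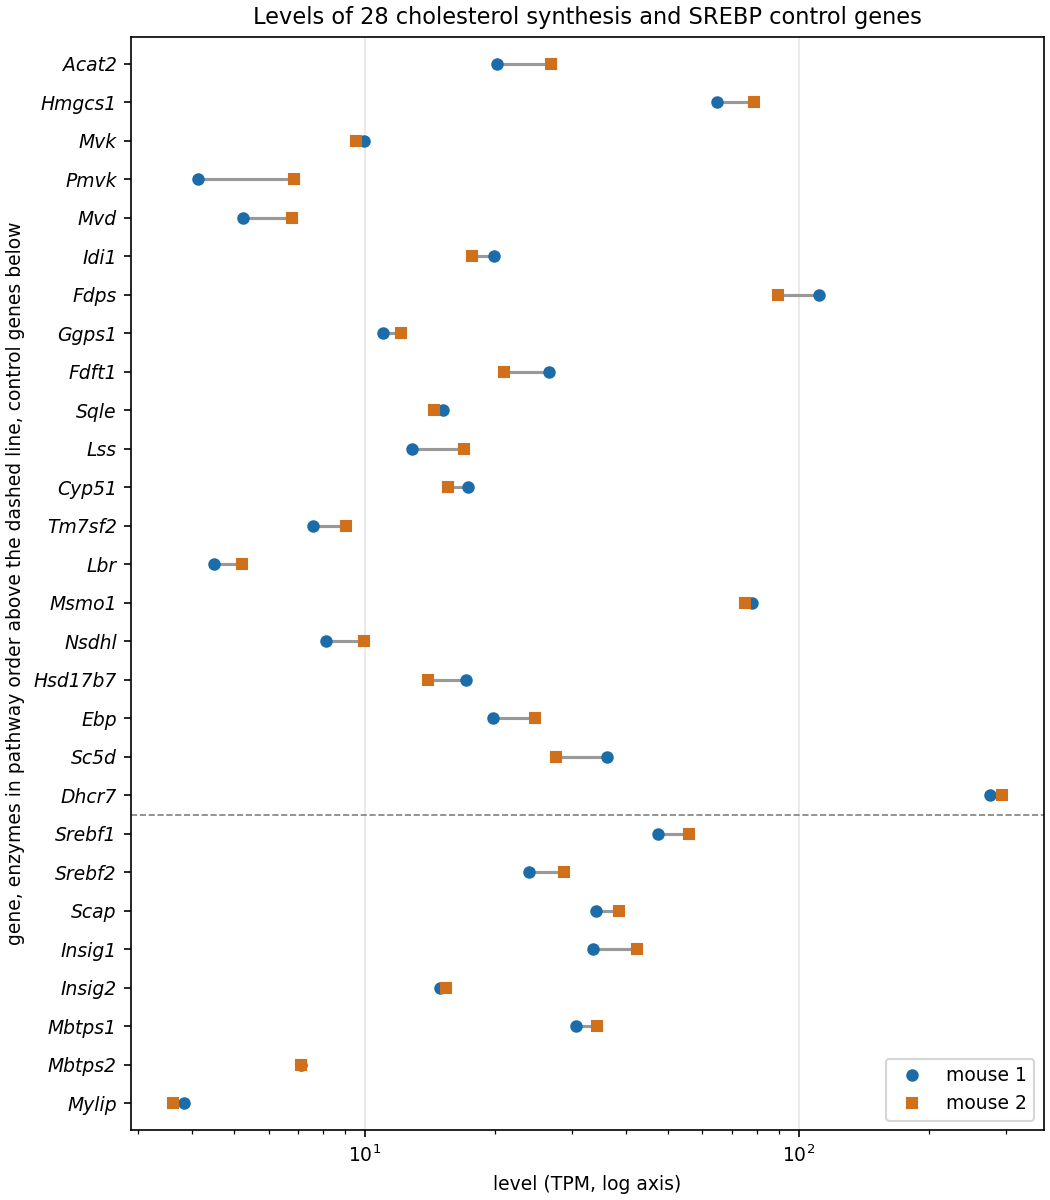
Levels of the 28 genes in TPM on a log axis, with a circle for mouse 1, a square for mouse 2 and a line between them; enzymes stand in pathway order above the dashed line and control genes below it. Dhcr7 stands highest at 276.5 and 294.5 TPM, and Mylip lowest at 3.83 and 3.61 TPM.

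The order of the levels was read from the values of both mice, and neighbours were held apart only where their ranges did not overlap. Of the 27 pairs of neighbours, 10 were apart and 17 overlapped. From the top, Dhcr7 and Fdps each stood alone, Msmo1 and Hmgcs1 overlapped, and Srebf1 stood alone. A run of overlapping neighbours followed from Insig1 over Scap, Mbtps1, Sc5d, Srebf2, Fdft1, Acat2 and Ebp to Idi1. A further run held Cyp51, Hsd17b7, Insig2, Lss and Sqle. Below Ggps1, which stood alone, came Mvk, Nsdhl and Tm7sf2, then Mbtps2, then Mvd, Pmvk and Lbr, and last Mylip.

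The first steps lead from acetyl-CoA to mevalonate. Acat2, the cytosolic thiolase that joins acetyl-CoA units, stood at 20.1 and 26.9 TPM in mouse 1 and mouse 2. Hmgcs1, the cytosolic HMG-CoA synthase (chromosome 13, 119690379 to 119708260), stood at 64.9 and 79.05 TPM. Hmgcs1 was the highest of the listed enzymes before Fdps, at the 93.9 percentile of detected coding genes.

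The next steps phosphorylate mevalonate and make the isoprenoid diphosphates. The mevalonate kinase Mvk stood at 9.96 and 9.52 TPM. The phosphomevalonate kinase Pmvk stood at 4.12 and 6.88 TPM, the widest relative gap in TPM between the mice among the 28 genes, and it rested on 174 and 219 counts. The decarboxylase Mvd stood at 5.25 and 6.78 TPM. These 3 genes were low beside the enzymes before and after them. Idi1, which isomerises the isopentenyl unit, stood at 19.9 and 17.7 TPM. Fdps, the farnesyl diphosphate synthase (chromosome 3, 89093588 to 89101959), stood at 111 and 89.5 TPM. Ggps1, which lengthens farnesyl to geranylgeranyl diphosphate and so leads off to protein prenylation, stood at 11.01 and 12.09 TPM.

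Fdft1, the squalene synthase and the first enzyme committed to sterols, stood at 26.6 and 20.9 TPM. Sqle, which adds oxygen to squalene, stood at 15.1 and 14.5 TPM. Lss, which closes the ring to lanosterol, stood at 12.8 and 16.9 TPM. These 3 genes lay in the middle of the order.

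The enzymes from lanosterol to cholesterol included the highest one, Dhcr7. Cyp51, the lanosterol demethylase, stood at 17.3 and 15.6 TPM. The sterol reductases Tm7sf2 and Lbr, which act on the same double bond, stood at 7.59 and 9.07 TPM and at 4.50 and 5.22 TPM; Lbr is also a protein of the nuclear lamina. Msmo1, which oxidises the methyl groups of the ring (chromosome 8, 64718139 to 64733792), stood at 78.1 and 75.01 TPM. Its partners in that removal were far lower, Nsdhl at 8.14 and 9.95 TPM and Hsd17b7 at 17.1 and 13.97 TPM. Ebp, the sterol isomerase, stood at 19.7 and 24.7 TPM, and Sc5d, the desaturase before Dhcr7, at 36.1 and 27.6 TPM.

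Of the control genes, Srebf1, which encodes SREBP-1 (chromosome 11, 60199089 to 60222581), was the highest at 47.5 and 55.8 TPM. With all counts of a gene placed on 1 coding transcript, an alternative chosen after the data were seen, Srebf1 averaged 32.8 TPM, below Insig1 at 36.2 TPM. Srebf2, which encodes SREBP-2, the form known mainly for cholesterol synthesis, stood at 23.9 and 28.8 TPM. The values of the 2 genes did not overlap. Scap stood at 34.01 and 38.6 TPM. Insig1 (chromosome 5, 28071363 to 28078662), itself a target of SREBP, stood at 33.5 and 42.4 TPM, and Insig2 at 14.9 and 15.4 TPM. The protease genes Mbtps1 and Mbtps2, which encode the site-1 and site-2 proteases of the Golgi, stood at 30.6 and 34.4 TPM and at 7.13 TPM in both mice. Mylip, a ubiquitin ligase known for lowering lipoprotein uptake, stood at 3.83 and 3.61 TPM.

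The difference between the mice was taken as the log2 ratio of mouse 2 to mouse 1 of scaled expected counts, not of TPM. A gene was called beyond counting noise where an exact two-sided binomial test of its counts, adjusted by Benjamini-Hochberg over the 17666 genes, stayed below 0.05. This test compares these 2 libraries and not a condition, and its errors hold counting alone. In whole tissue, fewer cells of a type and less RNA per cell cannot be told apart. Of the 28 genes, 12 had a ratio above 0 and 16 below 0, against 49.8% and 50.2% of all genes tested. None was 2-fold apart, while 1.15% of all genes were at least 2-fold higher and 1.81% at least 2-fold lower. Their median log2 ratio was -0.06, and that of all genes was -0.001.

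Beyond counting noise, 6 of the 28 genes were higher and 9 lower in mouse 2, against 10.4% and 11.0% of all genes tested. The 15 genes are 53.6% of the list, against 21.3% of all genes in either direction and 27.4% of the 10861 genes whose mean count lay in the range of the list. The share called depends on counts, and genes within that wide range were not matched to the list by count. The part of counts in the gap was not tested. Among nuclear coding genes the 5th to 95th percentiles were -0.45 and 0.44, and 25 of the 28 genes lay between them.

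**Figure D3:**
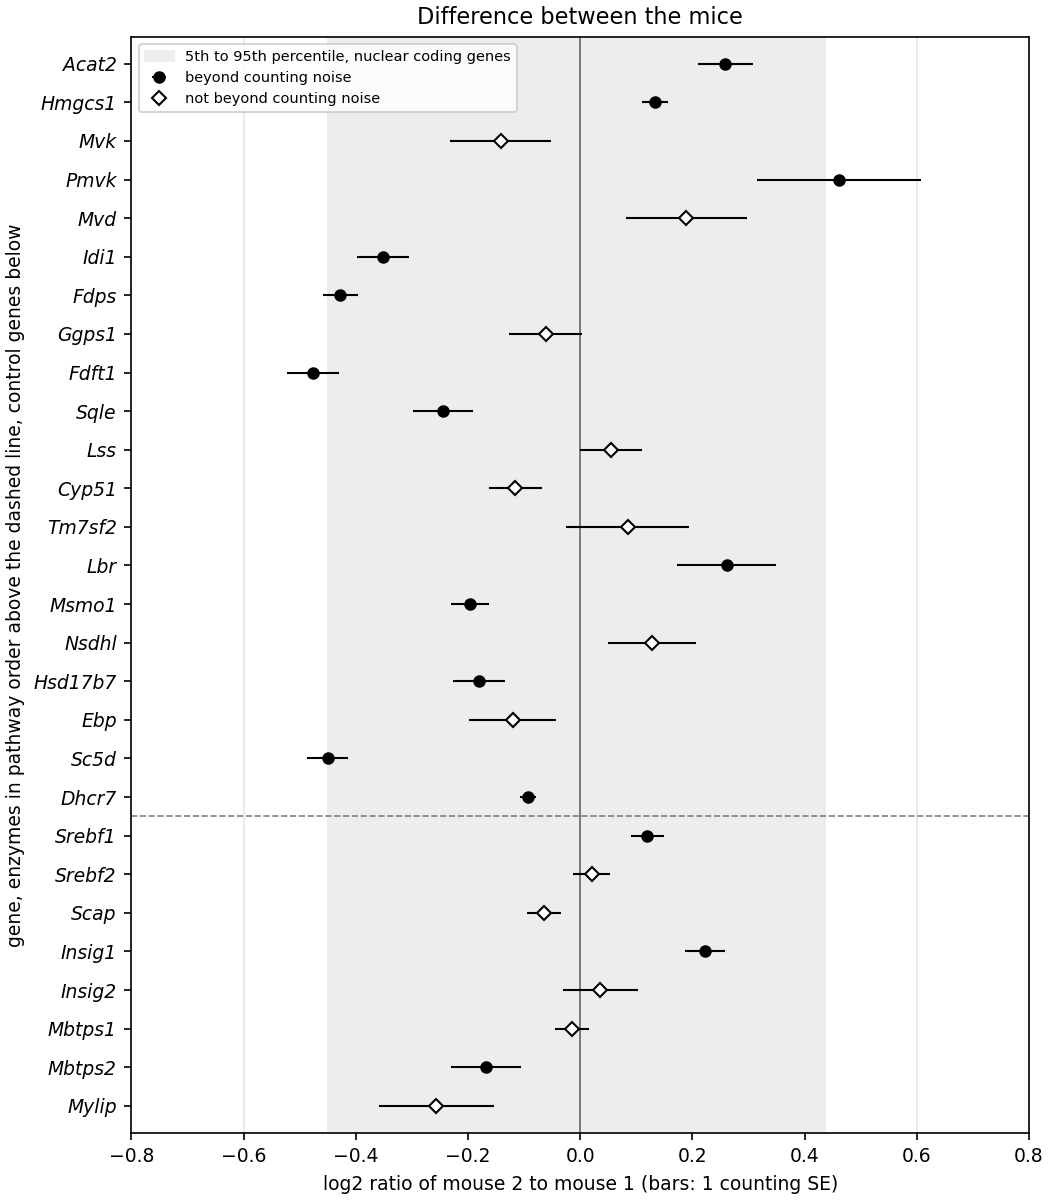
The log2 ratio of mouse 2 to mouse 1 of scaled counts for each gene, with bars of 1 counting SE, filled circles for genes beyond counting noise and open diamonds for the others; the grey band is the 5th to 95th percentile of nuclear coding genes. Fdft1 and Sc5d lie just below the band and Pmvk just above it, with the other 25 genes inside.

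Of the 20 enzymes, 8 were called lower in mouse 2, against 11.0% of all genes tested. Fdft1 had 2469 counts in mouse 1 and 1616 in mouse 2, a log2 ratio of -0.48 ± 0.046 (counting SE; adjusted p = 1.34e-23, exact binomial test). Sc5d had 3893 and 2595 counts, a ratio of -0.45 ± 0.037 (adjusted p = 1.96e-33, exact binomial test). Fdps had 5296 and 3587 counts, a ratio of -0.43 ± 0.031 (adjusted p = 2.65e-41, exact binomial test). These were the 3 lowest ratios of the list. Idi1 followed at -0.35, Sqle at -0.24, Msmo1 at -0.20, Hsd17b7 at -0.18 and Dhcr7 at -0.09, each called. By pathway step, 0 of 2 enzymes up to mevalonate and 2 of 6 from there to the isoprenoid diphosphates were called lower. From squalene to lanosterol 2 of 3 were, and from lanosterol to cholesterol 4 of 9.

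The enzymes called higher in mouse 2 were Acat2, Hmgcs1, Pmvk and Lbr, 4 of the 20, against 10.4% of all genes tested. Hmgcs1 had 8192 and 8184 counts, from the smaller library in mouse 2, and a log2 ratio of 0.13 ± 0.023 (adjusted p = 8.20e-08, exact binomial test). Acat2 had 1637 and 1784 counts and a ratio of 0.26 ± 0.049 (adjusted p = 2.88e-06, exact binomial test). Pmvk stood at 0.46, with an SE of 0.15. Lbr stood at 0.26, a call that was lost without a count filter (adjusted p = 0.0686, exact binomial test). The other 8 enzymes, Mvk, Mvd, Ggps1, Lss, Cyp51, Tm7sf2, Nsdhl and Ebp, ranged from -0.14 to 0.19 and were not called. The 20 enzymes had a median of -0.10.

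Among the 8 control genes, 2 were higher and 1 lower beyond counting noise, with a median of 0.003. These 3 of 8 stand against 21.3% of all genes in either direction and 27.4% at counts in the range of the list. Insig1 had 3305 and 3513 counts and a log2 ratio of 0.22 ± 0.035 (adjusted p = 5.03e-09, exact binomial test). Srebf1 had 5040 and 4989 counts and a ratio of 0.12 ± 0.029 (adjusted p = 3.64e-04, exact binomial test). Mbtps2 stood at -0.17 (adjusted p = 0.037, exact binomial test), a call that was lost under total-count scaling, without a count filter and in the second quantification, at adjusted p of 0.16, 0.086 and 0.32. Srebf2 at 0.02, Scap at -0.06, Insig2 at 0.04, Mbtps1 at -0.01 and Mylip at -0.26 were not called. Srebf1 and Insig1 thus differed in the direction of Hmgcs1 and Acat2 and opposite to Fdps, Fdft1 and Sc5d.

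TPM and the ratio of scaled counts need not have the same sign. TPM was higher in mouse 2 for 17 genes, lower for 10 and equal for 1, and 5 of those 17 had a ratio below 0. Dhcr7 is one of them, with scaled counts of 680 and 637 CPM beside 276.5 and 294.5 TPM. Nuclear coding genes took 29.5% of all TPM in mouse 1 and 32.3% in mouse 2, and TPM also follows the transcript make-up of a gene.

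Cell type markers, those of the cortex among them, and immediate early genes were compared between the mice as well. Beside the calls in these lists, 10.4% of all genes tested were called higher and 11.0% lower, and the share called depends on counts. All 8 adipocyte genes, led by Cfd and Fabp4, were higher in mouse 2, with 7 called, a median log2 ratio of 0.68 and a summed level of 1471 and 2475 TPM. The 5 red blood cell genes tested, led by Hba-a1 and Hbb-bs, were lower, with a median of -0.99 and a summed level of all 6 of 747 and 409 TPM. The 6 immediate early genes, led by Nr4a1 and Junb, were lower, with a median of -1.69 and a sum of 374 and 187 TPM. The 7 medulla genes, led by Chga and Chgb, were lower, with a median of -0.19, 5 of them called, and sums of 2091 and 1964 TPM. The 7 cortex genes, led by Star and Hsd3b1, had a median of -0.08, with 2 called higher and 4 lower, and sums of 20422 and 22033 TPM. At such levels small ratios are called: Star was called at 0.06, with 424593 and 403177 counts. Endothelial genes, led by Plvap and Emcn, and macrophage genes, led by Cd74 and C1qa, had medians of 0.06 and 0.11; 0 of 5 and 1 of 6 were called. Of the liver genes 1 of 5 reached 1 TPM in both mice, Apoa2 at 1.04 TPM, with Alb at 0.46 and 1.89 TPM. Of the kidney genes none of 4 did, and 3 of these had 0 counts in both mice while Aqp2 averaged 0.22 TPM. The part of these differences in the ratios of the cholesterol genes was not tested.

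Genes that serve the same pathway outside the 28 were compared in the same way, with all members of each list at 1 TPM or more in both mice. A list of 4 genes was drawn up for electron supply to the oxygen-using sterol enzymes. Cyb5b and Cyb5a led it at 186 ± 13.2 TPM and 134 ± 4.87 TPM (SD, n = 2). Whether each of them serves these enzymes in this tissue was not tested, and RNA levels do not measure the supply. All 4 genes of this list had ratios below 0, with a median of -0.10, and 3 were called lower, against 11.0% of all genes tested. The isoprenoid branch list held 13 genes that use isoprenoid diphosphates or process prenylated proteins. Fnta and Rabggtb led it at 30.8 and 25.6 TPM, and 5 genes had ratios above 0 and 8 below. Of these 13, 1 was called lower, Rce1, a protease of prenylated proteins, at -0.26. The isoprenoid branch had a median of -0.05.

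Genes that move or degrade the control proteins formed 2 further lists. Of 10 genes for ubiquitin ligases and partners at the endoplasmic reticulum, led by Vcp at 121.5 TPM and Ufd1 at 40.98 TPM, 2 were called higher and 3 lower, with a median of 0.03. These 5 of 10 stand against 21.3% of all genes tested. Of 10 genes of the COPII coat, which carries SCAP and SREBP to the Golgi, 2 were called higher and 0 lower, against 10.4% and 11.0% of all genes, with a median of -0.01. Sec24d and Sar1a led them at 59.1 and 58.1 TPM.

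Genes downstream of SREBP outside synthesis differed among themselves. Tmem97, a sterol-linked membrane protein, stood at 13.3 and 15.1 TPM and was not called. Stard4, which carries sterols between membranes, stood at 9.80 and 8.23 TPM with a log2 ratio of -0.24, and was called lower. Of 15 genes of fatty acid synthesis linked to SREBP-1, 8 were called higher and 5 lower, against 10.4% and 11.0% of all genes tested, with a median of 0.09 and a range from -0.29 to 1.38. Scd1, a fatty acid desaturase, was the only one of them at least 2-fold apart by the ratio of scaled counts, at 1.38, with 120 and 318 TPM in mouse 1 and mouse 2. Pnpla3 at 1.00, Fasn at 0.96, Thrsp at 0.90 and Acaca at 0.66, named after their values were seen, were also called higher. In TPM, Fasn at 197 and 419, Thrsp at 94.2 and 198.5 and Pnpla3 at 4.19 and 9.20 were more than 2-fold apart as well. Fads2 and Acly, the 2 highest, stood at 674 and 453 TPM with ratios of -0.10 and -0.02. The adipocyte markers, of which all 8 were higher in mouse 2, stand beside this result, and their part in it was not tested. Of 7 oxysterol receptor genes and targets, 4 had ratios above 0 and 3 below. Of these 7, 2 were called higher and 0 lower, against 10.4% and 11.0% of all genes tested. The called ones were Abca1, at 57.1 TPM and a ratio of 0.14, and Rxrb, at 18.5 TPM and a ratio of 0.20. Nr1h2, at 36.7 TPM and a ratio of -0.11, was not called. Mylip of the 28 genes, a further target of these receptors, stood at -0.26 and was not called.

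The 28 genes have 184 annotated transcripts, of which 78 are not of coding type. For 27 genes the leading transcript, that with the highest mean percent of its gene, was coding, and for 26 it was the same in a second quantification of the same libraries. It held at least 90% for 6 genes and under 50% for 5. Percent here is of molecules, so a short transcript with few reads can take a large share.

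**Figure D4:**
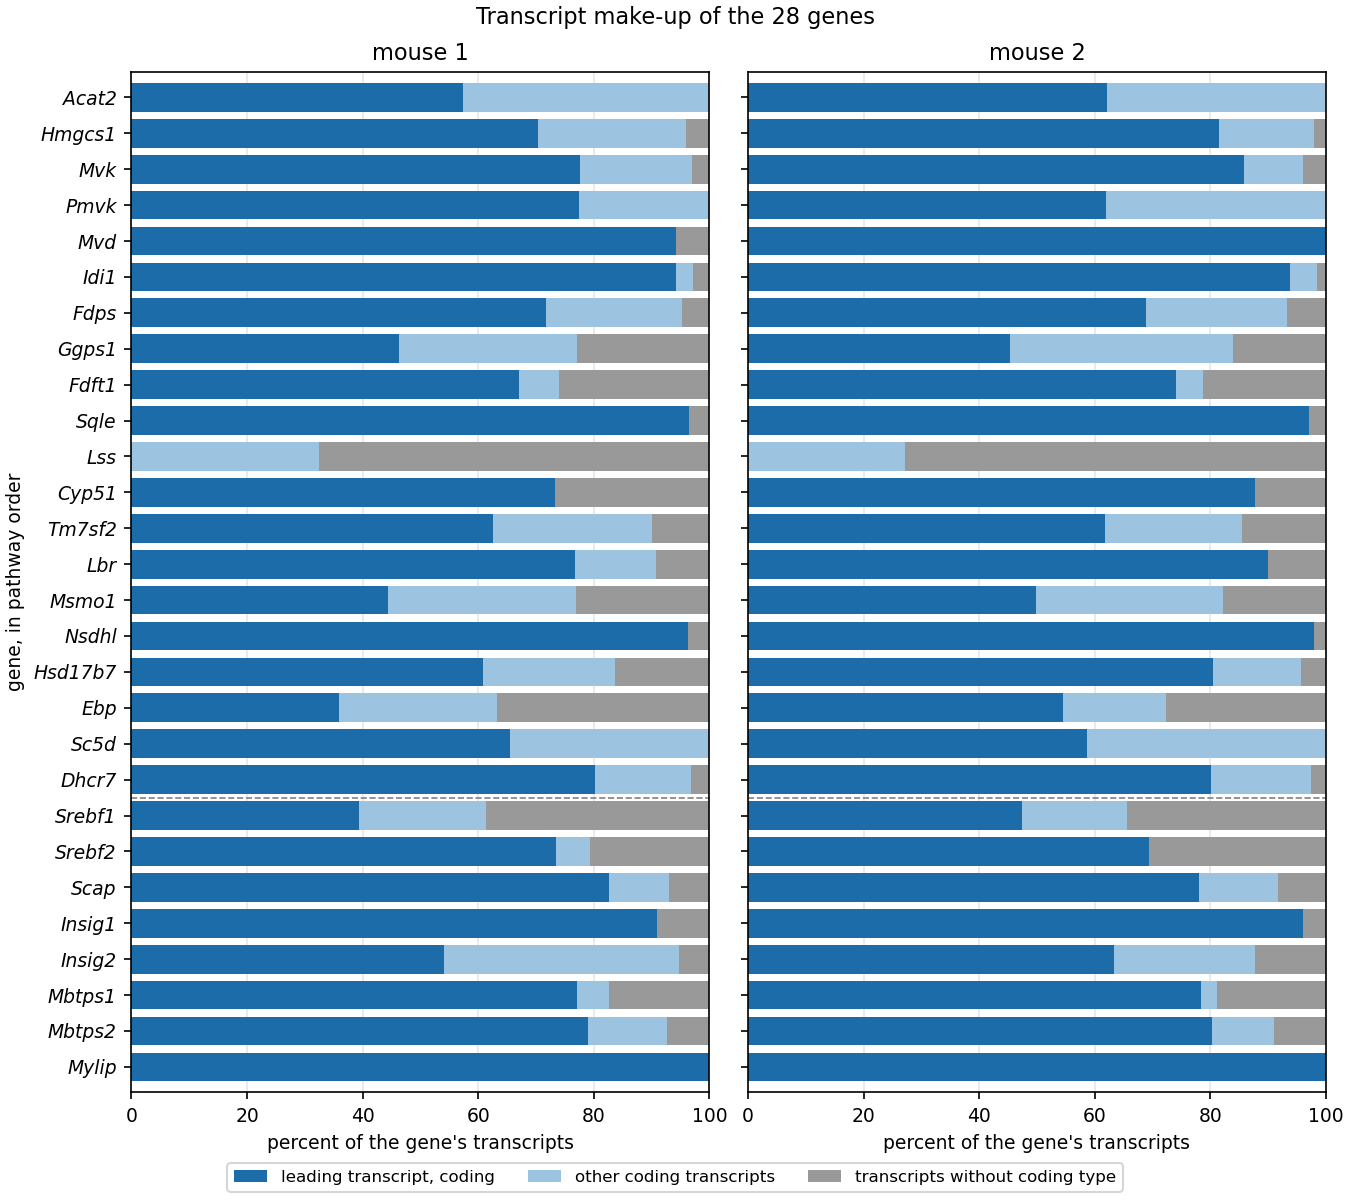
Percent of each gene's transcripts held by its leading transcript where coding (dark blue), other coding transcripts (light blue) and transcripts not of coding type (grey), for mouse 1 and mouse 2. Mvd, Idi1, Sqle, Nsdhl, Insig1 and Mylip are nearly all dark, and Lss is mostly grey in both mice.

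Lss was the exception, with 67.5% of its transcripts in mouse 1 and 72.8% in mouse 2 not of coding type. Its leading transcript Lss-202, a processed transcript of 352 bases, took 35.4% and 29.2%, but only 3.31% and 3.07% of the gene's counts. The coding Lss-201 took 30.8% and 24.6%, and 52.2% and 47.0% of the counts. In the second quantification Lss-202 took 0% and 2.37%, Lss-203, a retained intron form, took 39.1% and 24.05%, and Lss-201 took 31.8% and 30.2%. There Lss-203 led in mouse 1 and Lss-201 in mouse 2. The short Lss forms were thus not stable between quantifications.

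In Srebf1 the coding Srebf1-201 led with 39.5% and 47.4%. Transcripts not of coding type took 38.6% and 34.5% of molecules and 6.31% and 5.66% of counts. Alternative first exons of this gene give the forms SREBP-1a and SREBP-1c, and RefSeq lists 3 starts for it. Srebf1-201 starts at 60220604 on chromosome 11, within the window of the RefSeq start at 60220627. Srebf1-204, a processed transcript of 367 bases, starts at the RefSeq start 60222581 and took 18.7% and 15.2%, against 11.9% and 0% in the second quantification. Srebf1-207 starts at 60210465 and took 9.37% and 16.2%, and Srebf1-203 took 12.6% and 1.96%.

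Other genes differed between forms by end or by retained intron. Sc5d had 2 coding forms, Sc5d-202 of 1677 bases at 65.5% and 58.7% and Sc5d-201 of 4787 bases at 34.5% and 41.3%; by counts Sc5d-201 held 61.02% and 67.6%. Ebp-203, a coding form of 526 bases, took 35.97% and 54.5%, and Ebp-202, a retained intron form, 36.7% and 27.7%. In this quantification Ebp was the only gene whose leading form differed between the mice, Ebp-202 in mouse 1 by a narrow margin and Ebp-203 in mouse 2. In the second quantification Ebp-203 led in both mice, with 45.0% and 58.1%, and the leading form differed between the mice for Lss and Insig2 instead. Msmo1-201 took 44.5% and 49.9% and the 342-base Msmo1-205 took 30.3% and 29.5%. Ggps1-201 took 46.2% and 45.4% and Ggps1-207 took 20.03% and 20.6%. Srebf2-201 led with 73.4% and 69.4%, with 20.6% and 30.6% not of coding type, and Fdft1-201 with 66.99% and 74.1%, with 26.1% and 21.3% not of coding type.

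The remaining genes with a leading form under 90% had a coding form in front. Acat2-201 took 57.4% and 62.1% and Acat2-204 took 31.3% and 30.2%. Mvk-201 took 77.7% and 85.9%, with Mvk-206 at 10.2% in mouse 1. Pmvk-201 took 77.4% and 61.9% and Pmvk-202 took 9.53% and 21.99%. In these 3 genes of the early pathway both forms are coding.

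Fdps-201 took 71.7% and 68.8%, with the coding Fdps-203 at 16.3% and 21.7%. Cyp51-201 took 73.3% and 87.7%, with the retained intron form Cyp51-204 at 25.5% and 11.6%. The second form of Fdft1, Fdft1-203, was also a retained intron form, at 12.4% and 21.3%. The same held for Srebf2-205, at 16.6% and 17.1%. Among the late enzymes, Tm7sf2-201 took 62.6% and 61.8% and Tm7sf2-209 took 17.0% and 10.01%. Lbr-201 took 76.7% and 90.02%, and the 384-base Lbr-208 took 14.0% in mouse 1 and 0% in mouse 2. Hsd17b7-201 took 60.9% and 80.5% and Hsd17b7-202 took 22.8% and 15.1%. Dhcr7-202 took 80.3% and 80.1% and Dhcr7-208 took 10.9% and 13.1%. The pair of forms of each of these 4 late enzymes is coding. Of the control genes, Scap-201 took 82.7% and 77.98% and Scap-205 took 7.04% and 9.17%. Mbtps2-201 took 78.9% and 80.3% and Mbtps2-206 took 6.22% and 4.96%.

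The choice of quantification moved some forms more than the mice did. Hmgcs1-202 took 70.4% and 81.6% in the gene-level quantification's transcript table and 10.6% and 9.39% in the second quantification, where Hmgcs1-201 took 76.8% and 78.3%. Both are coding and of like length, 3464 and 3245 bases, and the level of the whole gene was 65.01 and 80.6 TPM in the second quantification. Mbtps1-201, of 4195 bases, took 77.1% and 78.4% in the first and 36.8% and 38.9% in the second. Mbtps1-202, also coding and of 4336 bases, took 5.51% and 2.75% in the first and 35.0% and 38.8% in the second. The retained intron form Mbtps1-209 took 6.19% and 5.99% in the first and 4.29% and 4.58% in the second. Insig2-201 took 54.01% and 63.4% in the first and 30.6% and 39.7% in the second. Insig2-212, a coding form of 478 bases, took 29.4% and 24.4% in the first and 0% in the second in both mice.

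Gene levels were steadier than forms. In 25 of the 28 genes the second quantification gave a mean within 1.2-fold of the first, and the 5 highest genes were the same 5. Insig2 was the largest exception, at 22.9 and 21.8 TPM, or 1.48 times the first. Lbr followed at 5.63 and 6.66 TPM, or 1.26 times, and Scap stood lower at 29.6 and 29.8 TPM, or 0.818 times. The deposited interval of Lbr in mouse 2, from 5.33 to 7.34 TPM, lay above its listed level of 5.22 TPM.

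**Figure D5:**
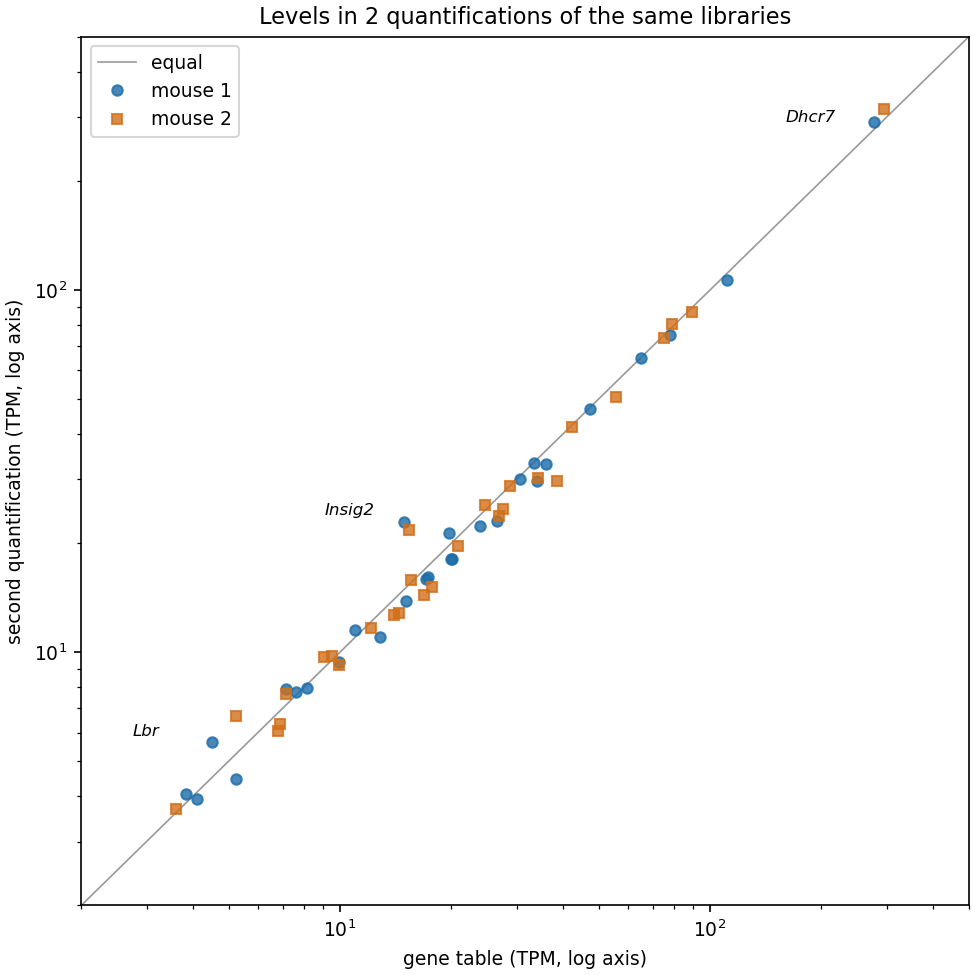
Level of each of the 28 genes in the second quantification (y axis) against the gene tables (x axis), both in TPM on log axes, with a circle for mouse 1, a square for mouse 2 and a line of equal levels. Points follow the line, with Insig2 above it at 22.9 and 21.8 TPM, and Lbr above it at 5.63 and 6.66 TPM.

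Reads that could belong to other genes touch several values. Fdft1 overlaps Ctsb, a lysosomal protease gene on the opposite strand, by 774 bases at their 3 prime ends. Ctsb stood at 501 and 411 TPM and its log2 ratio was -0.43, beside -0.48 for Fdft1. The labels name a directional library kit, but the strand setting of the counting is not given in the sources used here. Ctsb had whole expected counts, 44085 and 29881, and the posterior SD of Fdft1 was 0.021% and 0.030% of its count. For Tm7sf2, which overlaps a gene on its own strand, that SD was 1.53% and 2.39%. Whether reads of the stretch shared by Fdft1 and Ctsb went to the wrong gene was not tested. Of the 28 genes, 15 overlap another annotated gene, and for 6 the other gene reached 1 TPM in both mice. These include Cyp51 with Akap9 over 166 bases, Ggps1 with Arid4b over 257 bases, and Tm7sf2 with Vps51 over 532 bases on the same strand. Outside these, Mvd overlaps the coding gene Gm20388 on the opposite strand over 9822 bases of its span. Gm20388 stood at 0.48 and 1.48 TPM. It had 75.9 and 187 counts and a log2 ratio of 1.41, beside 355 and 369 counts for Mvd. Whether reads were split wrongly between Mvd and Gm20388 was not tested.

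Near copies, taken as at least 95% identity over at least 300 bases outside the gene itself, were found for 5 genes and numbered 10. The processed pseudogene Gm13502 is identical to an Idi1 transcript over 684 bases. It was assigned 45.6 and 113 counts beside 2264 and 1616 for Idi1, and the second quantification assigned it 125 and 202. With the counts of its 2 pseudogenes added, the ratio of Idi1 moved from -0.35 to -0.28. Gm3571, a pseudogene of Fdps, had 11.04 and 10.07 counts, and with 4 pseudogenes added the ratio of Fdps was -0.42. Acat3, a coding copy 97.7% identical to Acat2 over 1477 bases, had 24.4 counts in mouse 1 and 0 in mouse 2, where 3 counts are the floor. In the second quantification Acat3 had 20.7 and 7.05 counts. Tcp1 overlaps Acat3 on chromosome 17 and is 98.7% identical to Acat2 over 445 bases only, so it met the rule without being a copy of the gene. It had 4714 and 4340 counts, and the strand of that match was not recorded. Of the 28 genes, 21 had a deposited posterior SD of 0 for their counts in both mice, and the largest SD was 2.39% of the count, for Tm7sf2.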

How the data were processed

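Per the file headers, the deposited gene and transcript tables hold expected counts (estimated, not always whole), TPM scaled over all rows, the percent of a gene in each transcript, a posterior SD of the count and the bounds of a TPM interval as a signal whose level is not stated. A second deposited table, built straight on a transcript index, gives estimated counts and TPM per transcript and was summed to genes. Assembly mm10 and GENCODE M21 are per the deposited text files; aligner, quantifiers and strand setting are not stated in the sources used here. CAST reads met a reference from another strain.

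Levels are deposited TPM, mean and SD over 2 mice, whose spread may be technical. Log2 ratios were taken with edgeR 4.0.16 in R 4.3.3 after TMM scaling of expected counts, with a prior count of 2 and a minimum mean count of 10. Counts were rounded for the exact binomial test, which was run on simulated data. Those data held only counting noise and set fold changes, so they do not bear on spread between animals or libraries. The counting SE is from both counts. Depth was 36558609 and 32192201 counts; intervals and floors (3 counts) cover counting error only. Copies were found with BLAST 2.17.0, and the rest was run in Python 3.11.15 (scipy 1.17.1, pandas 2.3.3, numpy 2.4.6).

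The 28 genes and all lists were chosen with earlier results of these data known. Named were all 28 genes, the 2 highest of each other list, pathway genes at least 2-fold apart, copies with at least 10 counts, and leading transcripts under 90% or differing between quantifications. Other names, and 1 alternative that places all counts of a gene on 1 coding transcript, were chosen after values were seen. The planned comparison of protein sequences was not made, and further items of 2 pathway lists are not reported here and were left out of their counts.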

Additional observations from a re-analysis of the deposited data

How the results depend on the processing

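Each count of genes higher or lower in mouse 2 stayed within 1.5 times of its value under scaling to ERCC spike-ins, to total counts or to the median of ratios, nuclear coding genes only, no count filter, a mean of at least 100 counts, a prior count of 0.5 and the second quantification. The genes called higher numbered 5 to 7 and those called lower 8 to 12, and no called ratio changed sign. Total-count scaling moved the median ratio of the list to -0.014 and that of all genes to 0.047. The median level of 17.6 TPM became 18.8 TPM in the second quantification, 14.3 TPM with all counts on 1 coding transcript, and 17.3 to 18.5 TPM in either mouse alone. On 1 coding transcript the levels of 16 genes moved by more than the SD, all downwards, most for Ebp at 11.6 TPM and Lss at 8.22 TPM, and 4 of the 5 highest genes stayed among the 5, while Srebf1 left them at 32.8 TPM. Single calls that changed elsewhere were Mvd, called in the second quantification; Cyp51, called under ERCC scaling, coding genes only, the filter of 100 counts and the second quantification; Mylip, called under the first 3 of these; Scap, called under ERCC scaling; and Lbr, lost without a filter. The cause was not tested. With 2 mice, depth sets the counting error and not the spread between animals. No paired analysis was possible because there is 1 group.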
